A study of Mus musculus with 18 samples.

Results

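Polyadenylated RNA of brain was compared between 3 Ftsj1 knockout (KO) mice and 3 wild-type (WT) mice. The comparison takes the 6 total mRNA libraries of a series of 18, in which every mouse gave 3 libraries; the other libraries hold mRNA from inside ribosomes. All mice were males on a C57BL/6 background, 8 weeks old and untreated, and the replicate numbers are mouse numbers within a genotype. How the KO allele was made is not given in the sources used here. The labels name no brain region. In such bulk tissue fewer cells of a type and less RNA per cell cannot be told apart.

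Ftsj1 encodes a methyltransferase of tRNA that modifies riboses in the anticodon loop, with Thada or Wdr6 as a partner depending on the position. Loss of its human counterpart causes X-linked intellectual disability. The question of this comparison is which mRNAs differ in level between brains with and without the gene. Ftsj1 lies on chromosome X from 8238668 to 8252406 (GRCm38), and both of its RefSeq accessions had a count of 0 in all 6 libraries, WT included. The genotype could therefore not be checked in this table. Wdr6 had 373, 389 and 425 CPM (counts scaled to a common library size) in the WT mice and 436, 425 and 423 in the KO mice, ranges that overlap, with a log2 fold change of 0.11 (adjusted p = 0.605, edgeR). Thada was too rare to be tested.

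The libraries held 2024748 to 3459406 counts, and mitochondrially encoded genes took 13.1% to 15.2% of them. Correlations of log2 CPM over rows were 0.981 to 0.986 within a genotype and 0.98 to 0.985 between genotypes. The table gives 1 row per transcript accession, and a gene with several transcript models often has few or no counts, so a gene listed at 0 is not shown to be silent. Mag of myelin, Camk2a of cortical neurons, Syt1 of synapses, Arc and Npas4 of the immediate early response and Csf1r of microglia were all listed at 0. Brain identity was otherwise plain: markers of neurons, astrocytes and myelin summed to 14117 to 14608, 14563 to 15613 and 6371 to 7133 CPM.

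Of 8206 rows tested, 27 changed at a Benjamini-Hochberg adjusted p under 0.05 (0.329% of rows, edgeR quasi-likelihood). In KO brain 7 rows were higher (0.0853%) and 20 lower (0.244%). Of these rows 24 carry a gene symbol, and all 27 had KO and WT mice that did not overlap, as did 13.3% of all rows (KO above WT in 6.62% and below in 6.68%). An unadjusted p under 0.05 was given to 8.15% of rows, and a difference of at least 1.5-fold to 5.11%. The lower genes included the immediate early gene Ier5 and the transcription factor genes Egr1, Egr4, Fosl2 and Bhlhe40. Also lower were the deiodinase gene Dio2, the inositol transporter gene Slc5a3 and the microRNA genes Mir139 and Mir128-2. The higher genes included the transthyretin gene Ttr, the elongation factor gene Eef1a2 and the collagen gene Col6a1. Over all rows the 5th and 95th percentiles of the log2 fold change were -0.42 and 0.48, around a median of 0.0089. The most changed row has no gene match and was rare, with 1.26, 2.98 and 3.61 CPM in WT and 11.9, 6.13 and 9.35 in KO (3.53-fold higher, adjusted p = 0.00754, edgeR). Celf2, Mir128-2 and Gm35002, also at low levels, followed at 2.11-fold higher, 1.93-fold lower and 1.89-fold higher. Among the 1659 rows of at least 100 CPM, 4 differed by 1.5-fold or more, and 20 changed. The count of changed rows depended on single mice: it was 9 without KO replicate 1, 18 without KO replicate 3, 15 without WT replicate 1, 39 without KO replicate 2 and 42 without WT replicate 3.

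**Figure D1:**
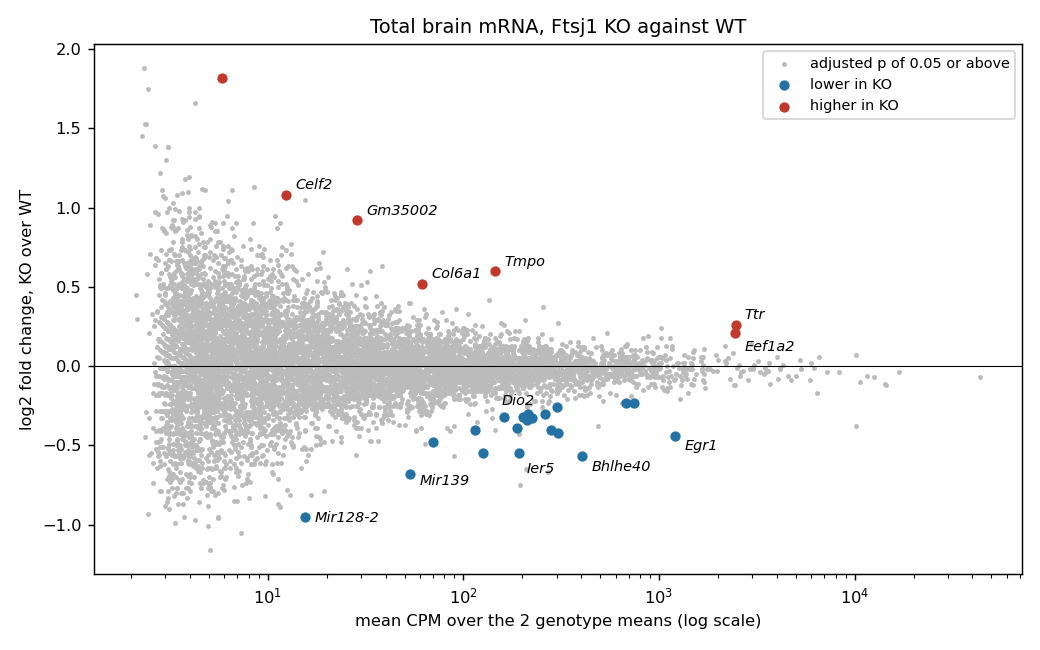
Each point is 1 row of the table, with its mean level in CPM on a log axis and its log2 fold change, KO over WT. Blue points fell (20) and red points rose (7); most of them lie above 100 CPM, where the spread of the grey points is narrow.

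**Figure D2:**
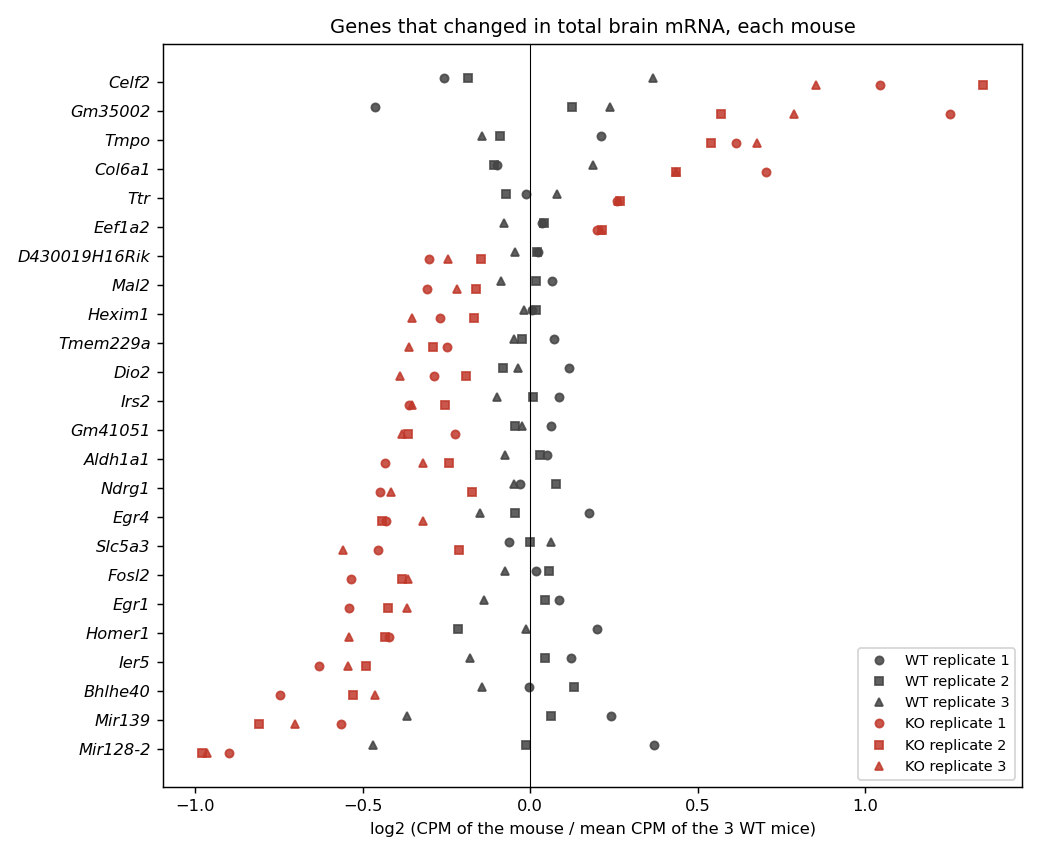
Level of each changed gene in each mouse, as the log2 ratio to the mean of the 3 WT mice, with grey for WT, red for KO and the shape giving the replicate number. In each of the 24 genes the KO mice lie on 1 side of all WT mice.

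Immediate early genes are switched on within minutes of synaptic activity or growth factor signals, without new protein synthesis, and their products drive a later wave of effector genes. Of 12 measured genes of this kind, mostly transcription factors, 4 fell (Ier5, Egr1, Fosl2 and Egr4) and none rose. In all 11 were negative, against 48.1% of all rows, 7 had an unadjusted p under 0.05 and a lower level, against 4.16%, and the median was -0.34. Without KO replicate 1 the median was -0.20 and 3 of these genes fell; with other mice left out it ran from -0.41 to -0.30. Their summed level was 2653 to 2969 CPM in WT and 2005 to 2302 CPM in KO. The list and the rest of those below were chosen with results of these data known, so counts describe the list and are no test of it.

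Ier5, a regulator of the heat shock factor Hsf1 and of growth control, had 249, 236 and 202 CPM in the WT mice and 148, 163 and 157 in the KO mice. The highest KO mouse thus lay below the lowest WT mouse by more than the spread within the KO group (log2 fold change -0.55, SE 0.0714, adjusted p = 4.6e-06, edgeR). Egr1, a zinc finger factor used as a marker of neuronal activity, had 1479, 1437 and 1267 CPM in WT and 957, 1038 and 1080 in KO. It was the most abundant of the group, with groups well apart (-0.44, SE 0.0528). Its relative Egr4 had 148, 127 and 118 CPM in WT and 97.2, 96.3 and 105 in KO (-0.40, adjusted p = 0.0114, edgeR). Here the KO mice were alike and WT replicate 1 was the highest. Fosl2, an AP-1 subunit that pairs with Jun proteins, had 352, 362 and 330 CPM in WT and 240, 267 and 270 in KO (-0.42, SE 0.0595, adjusted p = 1.09e-05, edgeR).

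The classical members Fos and Junb did not pass. Fos had 159, 138 and 168 CPM in WT and 101, 133 and 140 in KO, so that KO replicate 3 lay above WT replicate 2 (-0.33, adjusted p = 0.384, edgeR). Junb had 167, 163 and 158 CPM in WT and 114, 149 and 161 in KO (-0.20, adjusted p = 0.591, edgeR). For both, KO replicate 1 was the lowest mouse of all. Without that mouse Ier5, Egr1 and Fosl2 still passed, and Egr4 had an adjusted p of 0.153 (edgeR). For Egr4 it was 0.0648 without KO replicate 2 and 0.487 without WT replicate 1.

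The promoters of 3 of these lower genes are shown because a shared sequence could be looked for in them. They are Ier5 and Egr4, for which a comparison with another annotation (below) gave a distance of 0, and Irs2 (below), which held the only match. Each runs from 250 bases before the gene start to 50 after it, read along the gene (RefSeq sequence, GRCm38.p6, minus strand), and capitals mark a motif match.
Ier5 (chr1:155099587-155099886): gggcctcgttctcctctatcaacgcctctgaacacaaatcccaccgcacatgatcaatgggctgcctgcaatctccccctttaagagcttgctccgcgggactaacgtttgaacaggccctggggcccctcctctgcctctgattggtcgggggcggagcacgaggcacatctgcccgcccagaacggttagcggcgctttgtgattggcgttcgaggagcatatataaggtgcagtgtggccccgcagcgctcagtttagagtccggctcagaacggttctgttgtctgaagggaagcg
Egr4 (chr6:85513540-85513839): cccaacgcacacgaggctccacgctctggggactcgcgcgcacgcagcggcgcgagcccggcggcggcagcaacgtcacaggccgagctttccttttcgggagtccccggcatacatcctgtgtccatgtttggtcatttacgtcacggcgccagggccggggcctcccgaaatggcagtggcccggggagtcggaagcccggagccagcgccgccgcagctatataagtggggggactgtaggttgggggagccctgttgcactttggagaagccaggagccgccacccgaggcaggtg
Irs2 (chr8:11008880-11009179): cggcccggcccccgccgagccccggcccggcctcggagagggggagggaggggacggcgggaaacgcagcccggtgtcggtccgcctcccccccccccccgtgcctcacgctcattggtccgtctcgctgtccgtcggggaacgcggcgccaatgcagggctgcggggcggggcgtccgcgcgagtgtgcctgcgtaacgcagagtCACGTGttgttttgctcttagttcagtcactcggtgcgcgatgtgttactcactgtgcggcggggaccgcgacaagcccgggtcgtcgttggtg
The motifs searched on both strands were the cAMP response element TGACGTCA, the serum response element (CArG box), the AP-1 site TGACTCA, the E-box CACGTG, the early growth response site GCGTGGGCG and the ER stress response element. The promoters of Egr1 and Bhlhe40, which also fell, were not searched, so the result does not cover them. Among the promoters of Ier5, Fosl2, Egr4, Homer1 and Irs2, 1 match was found, an E-box in Irs2 at -44 to -39 from the start, and 7.15% of 32817 RefSeq promoters of this length hold one. The other motifs occur in 1.79%, 1.63%, 5.2%, 0.612% and 0.119% of promoters in the order given without the E-box. For Fosl2, Homer1 and Irs2 the matching transcript in GENCODE, another annotation, starts 671, 738 and 471 bases from the start used for the window. In RefSeq, where Fosl2 and Irs2 have 1 transcript model each, the window start is the gene start.

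Of 31 measured effector genes of neuronal activity 2 fell, Homer1 and Irs2, and 24 were negative, with a median of -0.13 (-0.08 without KO replicate 1). Over all rows 0.244% fell and 48.1% were negative. Homer1, which encodes a scaffold that links metabotropic glutamate receptors to calcium stores, had 92.6, 69.5 and 80.0 CPM in WT and 60.2, 59.8 and 55.5 in KO (-0.48, adjusted p = 0.0149, edgeR). The value is for 1 of several transcript models. Irs2, the adaptor that carries the signal of the insulin and IGF1 receptors, had 191, 181 and 168 CPM in WT and 140, 151 and 141 in KO (-0.32, adjusted p = 0.0149, edgeR). In both genes the WT mice were spread more widely than the KO mice. Dusp6, a phosphatase of ERK, had 306, 295 and 271 CPM in WT against 223, 258 and 265 in KO without passing (-0.23, adjusted p = 0.158, edgeR). Ptgs2, the inducible cyclooxygenase, and Nptx2, a secreted pentraxin of excitatory synapses, likewise had KO mice below all WT mice without passing (-0.31 and -0.13, adjusted p = 0.351 and 0.47, edgeR). Homer1 did not pass in 3 of the fits that leave out a mouse, with an adjusted p (edgeR) of 0.114 without KO replicate 1, 0.115 without KO replicate 3 and 0.495 without WT replicate 1. For Irs2 it was 0.179, 0.115 and 0.322 without the same mice and 0.0924 without WT replicate 2. DESeq2 gave both an adjusted p of 0.055.

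Bhlhe40 (chromosome 6, 108660629 to 108666925) encodes a helix-loop-helix repressor that is induced by activity and hypoxia and that feeds back on the circadian clock. It had 484, 531 and 439 CPM in WT and 289, 336 and 352 in KO, and no KO mouse came near a WT mouse (-0.57, SE 0.0727, adjusted p = 0.000492, edgeR). Among the 12 measured clock genes it was the 1 that changed, against 0.329% of all rows. Of the clock genes 4 were negative, against 48.1% of all rows, and the median was 0.08. Nr1d1, a nuclear receptor that represses clock genes, had 217, 240 and 208 CPM in WT and 119, 186 and 187 in KO, all below WT and with KO replicate 1 far below the others (-0.43, adjusted p = 0.696, edgeR). The clock output gene Dbp was at 110 CPM in WT and 111 CPM in KO on average. Of 11 measured glucocorticoid-responsive genes none changed and 6 were negative, with a median of -0.03; none had an unadjusted p under 0.05.

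Thyroid hormone reaches the brain bound to carriers, is activated in glia and acts through nuclear receptors in neurons and oligodendrocytes. In this set of 9 measured genes the carrier gene Ttr rose, the activating enzyme gene Dio2 fell, and 5 were negative. Among all rows 0.0853% rose, 0.244% fell and 48.1% were negative. Dio2 (chromosome 12, 90724552 to 90739038) encodes type 2 deiodinase, which converts the prohormone to its active form in astrocytes and tanycytes. It had 311, 271 and 280 CPM in WT and 235, 251 and 219 in KO, with the highest KO mouse below the lowest WT mouse (-0.30, SE 0.0635, adjusted p = 0.0113, edgeR). Ttr had 2217, 2129 and 2363 CPM in WT and 2678, 2692 and 2680 in KO, with KO mice much closer to each other than WT mice (0.26, SE 0.0443, adjusted p = 0.000492, edgeR). The receptor gene Thra had 1073, 1069 and 1057 CPM in WT and 1249, 1151 and 1219 in KO without passing (0.18, adjusted p = 0.0719, edgeR). The receptor target Klf9 (-0.03) and the cytosolic hormone-binding protein Crym (0.00) had log2 fold changes near 0. Ttr passed whichever mouse was left out. The adjusted p of Dio2 (edgeR) was 0.149 without KO replicate 1, 0.191 without KO replicate 3 and 0.365 without WT replicate 1.

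Ttr is also the foremost marker of the choroid plexus, the epithelium in the ventricles that makes cerebrospinal fluid. Of 9 measured markers of it 1 rose, Ttr itself, and 7 were positive. Over all rows 0.0853% rose and 48.1% were negative. Of the markers 3, Ttr included, had an unadjusted p under 0.05 and a higher level, against 4.0% of all rows. Aqp1, a water channel, had 13.5, 11.9 and 16.7 CPM in WT and 22.5, 24.5 and 20.2 in KO (0.65, adjusted p = 0.165, edgeR), and Clic6 had 76.5, 80.9 and 80.4 against 85.6, 101 and 99.1 (0.27, adjusted p = 0.364, edgeR). Both had all KO mice above WT. Kcnj13 (-0.12) and Slc13a4 (-0.08) had negative values that changed sign without a single WT mouse, and Folr1, Slc4a5, Calml4 and Cldn2 were listed at 0. The summed level was 2405 to 2651 CPM in WT and 2975 to 3024 CPM in KO, most of it Ttr, and the part that the amount of choroid plexus in each brain plays in the Ttr value was not tested.

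Genes of metabolite handling were among those that fell. Slc5a3, the sodium-coupled transporter that takes up the osmolyte myo-inositol, had 307, 321 and 335 CPM in WT and 234, 277 and 218 in KO (-0.40, adjusted p = 0.00171, edgeR). It shares its locus with Mrps6, which had KO mice below all WT mice without passing (-0.28, adjusted p = 0.423, edgeR). Aldh1a1, which makes retinoic acid from retinaldehyde, had 260, 256 and 238 CPM in WT and 186, 212 and 201 in KO (-0.33, adjusted p = 0.00446, edgeR). For Slc5a3 and Aldh1a1 KO replicate 2 came nearest to WT. Aldh1a1 was the 1 of 9 measured retinoid genes that changed, with 7 negative and a median of -0.08. Among all rows 0.329% changed and 48.1% were negative. With KO replicate 1 left out the adjusted p was 0.0561 for Slc5a3 and 0.153 for Aldh1a1 (edgeR), and with WT replicate 1 left out it was 0.0847 for Aldh1a1.

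Further genes that fell belong to none of these pathways. Mal2, which encodes a membrane proteolipid of vesicle transport, had 763, 739 and 687 CPM in WT and 589, 653 and 627 in KO (-0.23, SE 0.0506, adjusted p = 0.0149, edgeR). Hexim1, an inhibitor of the elongation kinase P-TEFb that acts together with 7SK RNA, had 329, 332 and 324 CPM in WT and 272, 292 and 257 in KO (-0.26, SE 0.0585, adjusted p = 0.015, edgeR). The WT mice of Hexim1 were nearly alike, and the KO mice were spread further. Tmem229a, a transmembrane protein gene, had 247, 231 and 227 CPM in WT and 198, 192 and 183 in KO (-0.30, adjusted p = 0.0113, edgeR). D430019H16Rik had 815, 813 and 777 CPM in WT and 650, 724 and 676 in KO (-0.23, adjusted p = 0.0113, edgeR), and the long noncoding RNA gene Gm41051 had 233, 216 and 219 against 191, 173 and 171 (-0.32, adjusted p = 0.00775, edgeR). All of these differences were under 1.5-fold, with no overlap between groups. None of these calls held without each single mouse: adjusted p rose to 0.349 for Mal2 and 0.153 for Hexim1 without KO replicate 1, to 0.229 for Tmem229a and 0.162 for Gm41051 without WT replicate 1 and to 0.244 for D430019H16Rik without KO replicate 1 (edgeR). Without KO replicate 3 adjusted p was 0.102 for Mal2, 0.246 for Hexim1, 0.12 for Tmem229a, 0.102 for Gm41051 and 0.109 for D430019H16Rik (edgeR). Without WT replicate 1 Mal2, Hexim1 and D430019H16Rik were at 0.322, 0.145 and 0.145, without WT replicate 2 at 0.163, 0.12 and 0.117, and Tmem229a was at 0.0628 without KO replicate 1.

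Myelin genes leaned lower. Of 22 measured genes of oligodendrocytes and myelin 1 fell, Ndrg1, and 18 were negative, with a median of -0.10; 6 had an unadjusted p under 0.05 and a lower level. Over all rows these shares are 0.244% that fell, 48.1% negative and 4.16% lower at that p. Ndrg1, a stress-responsive gene whose loss causes a demyelinating neuropathy, had 231, 249 and 228 CPM in WT and 173, 209 and 177 in KO (-0.34, SE 0.0687, adjusted p = 0.00754, edgeR). KO replicate 2 was the nearest to WT. Fa2h, which hydroxylates the fatty acids of myelin lipids, had 140, 147 and 145 CPM in WT and 109, 121 and 124 in KO (-0.28, adjusted p = 0.139, edgeR). Mbp, the myelin basic protein gene, had 277, 265 and 270 against 251, 224 and 222 (-0.22, adjusted p = 0.141, edgeR). The oligodendrocyte factor Sox10 (-0.23) and the tight junction gene Cldn11 (-0.12) had KO mice below all WT mice without passing, and Cnp was at 0.13. The summed level was 6921 to 7133 CPM in WT and 6371 to 6632 CPM in KO. The adjusted p of Ndrg1 (edgeR) was 0.186 without KO replicate 1, 0.106 without KO replicate 3 and 0.104 without WT replicate 2. Astrocyte markers gave 11 of 16 negative with a median of -0.06, and microglial markers 5 of 11 with 0.06; none of either changed.

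Among the genes that rose, Eef1a2 encodes the form of elongation factor 1 alpha used by neurons and muscle, which brings aminoacyl-tRNA to the ribosome. It had 2336, 2344 and 2158 CPM in WT and 2617, 2641 and 2636 in KO (0.21, SE 0.0439, adjusted p = 0.0113, edgeR), with KO mice nearly alike and WT replicate 3 the lowest of all. Other genes of elongation, termination and rescue did not pass. Of the 16 measured, Eef1a2 included, 6 were negative, against 48.1% of all rows, and the median was 0.06. An unadjusted p under 0.05 and a higher level were found for 3 of the 16, against 4.0% of all rows. Gcn1, 1 of these, had KO mice above all WT mice (0.22, adjusted p = 0.192, edgeR). Of 32 measured initiation factor genes, 13 aminoacyl-tRNA synthetase genes, 26 tRNA modification genes and 56 cytosolic ribosomal protein genes none changed, where 0.329% of all rows did. Their medians were -0.00, 0.03, 0.06 and -0.01. The adjusted p of Eef1a2 (edgeR) was 0.114 without KO replicate 1, 0.115 without KO replicate 3, 0.161 without WT replicate 3 and 0.103 with no filter on low counts.

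Col6a1, a chain of the microfibrillar collagen VI, had 46.9, 46.6 and 57.1 CPM in WT and 81.8, 67.8 and 67.8 in KO (0.52, adjusted p = 0.0138, edgeR). Of 15 measured genes of mural cells and meningeal fibroblasts it was the 1 that changed, with 13 positive and a median of 0.10. Over all rows 0.329% changed and 48.1% were negative. The summed level of the 15 genes was 1194 to 1314 CPM in WT and 1282 to 1341 CPM in KO, and Pdgfrb, Kcnj8 and Aebp1 were listed at 0. The part of such cells in the Col6a1 value was not tested. The basement membrane collagen gene Col4a2 had 163, 181 and 212 CPM in WT and 224, 239 and 219 in KO, above all WT mice without passing (0.29, adjusted p = 0.0719, edgeR). Col6a1 did not pass when KO replicate 1, WT replicate 1 or WT replicate 2 was left out (adjusted p = 0.293, 0.225 and 0.117, edgeR).

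For 3 higher rows the value is that of 1 transcript or of a transcript inside another gene. Tmpo encodes lamina-associated proteins of the nuclear envelope, and the row is 1 of its 8 transcript models; it had 133, 108 and 104 CPM in WT and 176, 167 and 184 in KO (0.60, SE 0.0803). Celf2, an RNA-binding regulator of splicing, was measured through 1 of 53 models, with 6.61, 6.95 and 10.2 CPM in WT and 16.3, 20.2 and 14.3 in KO (1.08, adjusted p = 0.0149, edgeR). The long noncoding RNA gene Gm35002 lies in Car10 and had 14.5, 21.8 and 23.6 CPM in WT and 47.7, 29.7 and 34.5 in KO (0.92, adjusted p = 0.0119, edgeR). With the accessions of a gene summed, Tmpo (0.55, adjusted p = 1.27e-05, edgeR) and Celf2 (1.05, adjusted p = 0.015, edgeR) rose too, but 95.3% and 98.3% of their counts lie in the row given here. With KO replicate 1, WT replicate 1 or WT replicate 2 left out, the adjusted p (edgeR) was 0.11, 0.271 and 0.102 for Celf2 and 0.186, 0.216 and 0.0523 for Gm35002; without KO replicate 2 it was 0.115 for Celf2. Tmpo passed in each of these fits.

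Protein folding genes leaned lower without single calls. Of 27 measured heat shock proteins 21 were negative, 7 had an unadjusted p under 0.05 and a lower level, and the median was -0.12 (-0.06 without KO replicate 1). Of all rows 48.1% were negative and 4.16% lower at that p. The constitutive chaperone gene Hspa8, the most abundant, had 2631, 2573 and 2428 CPM in WT and 2270, 2492 and 2257 in KO, with overlapping groups (-0.12, adjusted p = 0.423, edgeR). The steroid receptor cochaperone gene Fkbp4 had 293, 270 and 275 against 250, 254 and 243 (-0.17, adjusted p = 0.382, edgeR). Of 24 measured genes of the unfolded protein response and folding in the endoplasmic reticulum 17 were negative and 5 lower at that p, with a median of -0.09, and Manf, a secreted survival factor of that response, was at -0.30 (adjusted p = 0.17, edgeR).

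The integrated stress response, in which a blocked initiation factor favours translation of Atf4, gave 0 of 16 changed and 5 with an unadjusted p under 0.05, all higher, with a median of 0.09. Over all rows 0.329% changed and 4.0% were higher at that p. Atf5, a transcription factor of this response, had 11.3, 6.45 and 11.8 CPM in WT and 19.3, 14.7 and 29.5 in KO, with no overlap (1.05, SE 0.246, adjusted p = 0.0541, edgeR). Its adjusted p ran from 0.00226 to 0.456 over the alternatives, and it passed in 5 of 15. Nupr1, a stress-induced chromatin protein gene, was at 0.70 (adjusted p = 0.335, edgeR) and the nutrient sensor gene Sesn2 at 0.38 (adjusted p = 0.475, edgeR). Atf4 itself (-0.18), Asns (-0.19) and Chac1 (-0.07) were negative, and Ddit3 was listed at 0.

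**Figure D3:**
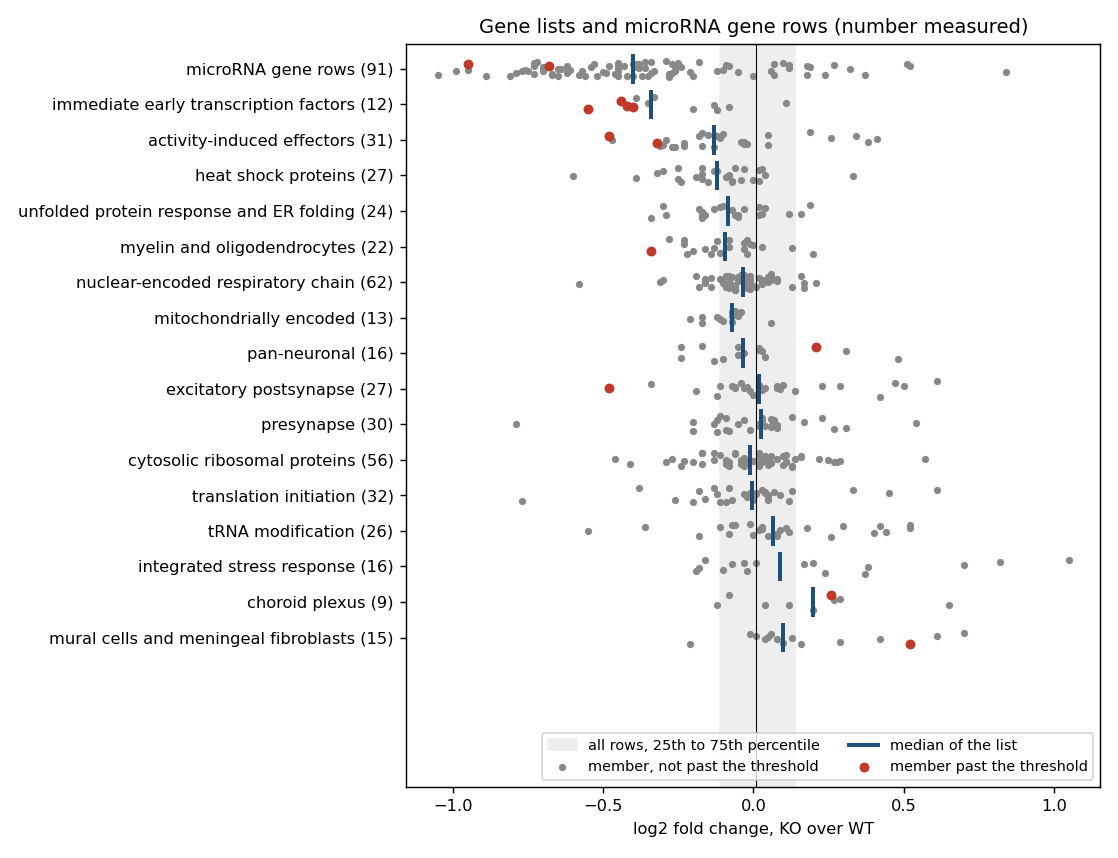
Log2 fold change, KO over WT, of each measured member of 16 lists and of the microRNA gene rows, with the number measured in brackets, a bar at the median and red for members past the threshold. Immediate early genes and microRNA rows have medians of -0.34 and -0.40; synaptic, ribosomal and initiation factor lists lie around 0.

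Rows of microRNA genes were looked at as a class after their values had been seen. A microRNA is cut from a hairpin in a longer transcript, often an intron of another gene, and pairs with mRNAs through its seed, bases 2 to 8. Of 91 such rows tested 2 fell, Mir139 and Mir128-2, and none rose; 74 were negative, 28 had an unadjusted p under 0.05 and a lower level and none a higher level, and the median was -0.40. Over all rows 0.244% fell, 48.1% were negative, 4.16% were lower at that p and 4.0% higher. Mature forms are shown for the genes that fell, for 3 let-7 family members, which share a seed, and for Mir132, a gene induced by activity (RefSeq sequence, GRCm38; capitals mark the seed).
miR-139-5p: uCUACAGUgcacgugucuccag
miR-128-3p: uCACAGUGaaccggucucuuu
let-7f-5p: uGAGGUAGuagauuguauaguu
let-7g-5p: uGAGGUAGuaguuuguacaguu
miR-98-5p: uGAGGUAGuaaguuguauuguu
miR-132-3p: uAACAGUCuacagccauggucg
The libraries were made from polyadenylated RNA, and reads of these rows cannot be assigned to the hairpin, the mature form or the host transcript.

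Mir139 lies in Pde2a and had 78.1, 69.0 and 51.2 CPM in WT and 44.7, 37.7 and 40.6 in KO (-0.68, SE 0.13, adjusted p = 0.00446, edgeR). Mir128-2 lies in Arpp21 and had 26.5, 20.3 and 14.8 CPM in WT and 11, 10.4 and 10.5 in KO (-0.95, SE 0.216, adjusted p = 0.0188, edgeR). In both genes the WT mice were spread further than the KO mice, with WT replicate 1 highest. Mir128-1, on another chromosome and with the same miR-128-3p, had 91.0, 71.9 and 60 CPM in WT and 56.9, 50 and 52.9 in KO without passing (-0.49, adjusted p = 0.0719, edgeR). Mir132 had 146, 142 and 106 against 101, 97.8 and 110, so KO replicate 3 lay above WT replicate 3 (-0.35, adjusted p = 0.158, edgeR). Without WT replicate 1 the adjusted p of Mir139 was 0.225 (edgeR). That of Mir128-2 was 0.0721 to 0.588 with any 1 mouse other than WT replicate 3 left out (edgeR).

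The 8 measured rows with the let-7 seed GAGGUAG were all negative, from -0.81 to -0.39 with a median of -0.64, and none changed. Together they held 1045, 693 and 585 CPM in the WT mice and 478, 509 and 517 in the KO mice. The WT mice differed among themselves by more than the lowest of them did from the KO mice. Whether reads were shared between these rows was not tested. Mirlet7g had 129, 109 and 82.0 CPM in WT and 71.1, 64.1 and 79.8 in KO (-0.57, adjusted p = 0.281, edgeR), and Mir98 12, 9.43 and 8.20 against 6.82, 6.75 and 5.84 (-0.62, adjusted p = 0.535, edgeR).

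Over the class, 51 rows overlap another gene and had a median of -0.46, and the 40 that do not had a median of -0.35 with 34 negative. All microRNA rows together summed to 14739, 11907 and 14272 CPM in WT and 10730, 9881 and 10428 in KO. Most of this was 1 row, Mir6236, with 12085, 9898 and 12417 CPM in WT and 9179, 8364 and 8813 in KO. It lay below WT in every KO mouse without passing (-0.38, adjusted p = 0.224, edgeR), and passed in 6 of 16 alternatives, DESeq2 (0.048) and limma-voom (0.000148) among them. Because that row outweighs the others, their sum is given apart: it was 2654, 2009 and 1855 CPM in WT and 1551, 1517 and 1615 in KO. Without WT replicate 1 the median of the class was -0.28. Among other noncoding RNA genes, the 41 snoRNA rows had a median of 0.06, and 559 long noncoding RNA rows had 0.08.

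**Figure D4:**
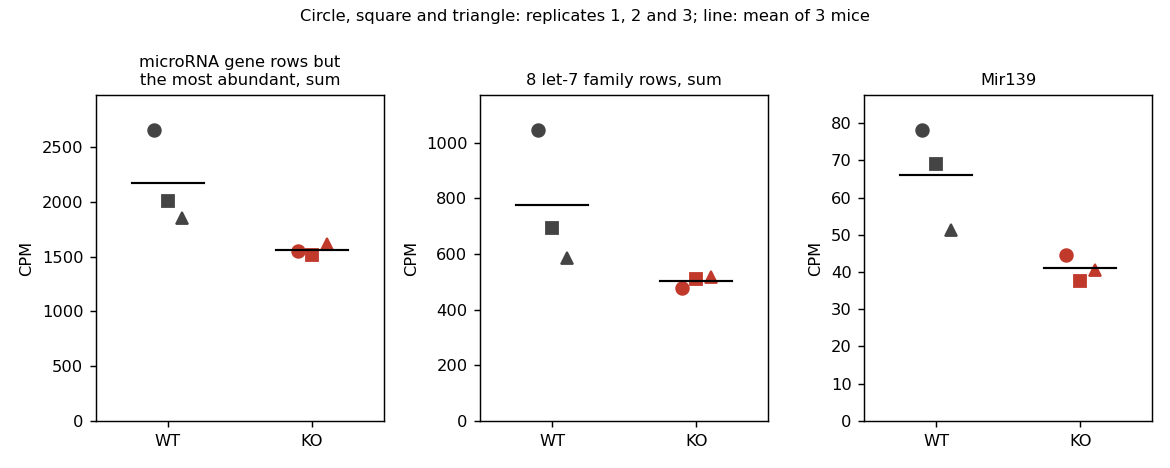
Levels in CPM of microRNA gene rows in each mouse, as the sum of all rows but Mir6236, the sum of 8 let-7 family rows and Mir139 alone; lines are means of 3 mice. WT replicate 1 is the highest in each panel, and the lowest WT mouse (1855, 585 and 51.2 CPM) lies above the highest KO mouse (1615, 517 and 44.7 CPM).

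Many lists of the brain's expression programme gave no calls. Over all rows 0.329% changed, a share at which lists of these sizes often hold none. Of 30 measured presynaptic genes, 16 of GABA signalling, 26 potassium channel genes and 10 sodium and calcium channel genes none changed, with medians of 0.02, -0.02, 0.02 and 0.12. The sodium and calcium channel genes leaned higher, with 9 positive and 1 negative and no unadjusted p under 0.05. Over all rows 48.1% were negative. Among 27 postsynaptic genes Homer1 alone changed, and the median was 0.02. Of 16 pan-neuronal markers Eef1a2 alone changed, and the neurofilament genes Nefh (-0.24, adjusted p = 0.158, edgeR) and Nefm (-0.17, adjusted p = 0.22, edgeR) had KO mice below all WT mice. Of 62 nuclear genes of the respiratory chain 44 were negative with a median of -0.03, and of 13 mitochondrially encoded genes 12 were negative with a median of -0.07; none changed. Nor did any of 24 measured genes of X-linked intellectual disability. None of them had an unadjusted p under 0.05, against 8.15% of all rows. Of the 49 genes in that list 13 were listed at 0, Ftsj1 among them.

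Around Ftsj1 itself, 29 rows within 5 Mb were tested and none changed, with 21 negative, against 48.1% of all rows, and a median of -0.03. The nearest genes with an unadjusted p under 0.05 were Ebp, a sterol isomerase gene (41.3, 37.2 and 37.7 CPM in WT; 26.4, 30.7 and 27.5 in KO; -0.47, adjusted p = 0.199, edgeR), and Slc38a5, a glutamine transporter gene at low level (-0.83, adjusted p = 0.38, edgeR). On the whole of chromosome X none of 240 rows changed, against 0.329% of all rows. Chromosomes 3, 4, 14 and 17 had no changed row either.

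Ribosome-contained mRNA came from the same brains, so it is a further measure in the same mice and no independent group. Of the 27 changed rows 21 were measured there. KO and WT mice did not overlap in the same direction for 15 of them and in the opposite direction for none, where 14.7% of 4749 rows did not overlap (7.1% with KO above WT and 7.56% with KO below). Bhlhe40 had 737, 780 and 614 CPM of ribosome-contained mRNA in WT and 415, 460 and 457 in KO. Dio2 had 122, 119 and 121 against 82, 97.1 and 71, and Irs2 428, 433 and 396 against 290, 354 and 292. These 3 genes thus showed the same order of groups in both kinds of RNA. Eef1a2 (4811, 4811 and 4598 against 5292, 5452 and 5454 CPM) and Ttr (4706, 4850 and 5254 against 6220, 6931 and 6584 CPM) were higher in every KO mouse there too. The groups overlapped for Tmpo, Col6a1, Aldh1a1, Hexim1, Homer1 and 1 row with no gene match.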

How the data were processed

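Per the labels' protocols, dissected brains were frozen and lysed, and total RNA was purified and selected for poly(A). The deposited table holds unnormalized read counts, 1 row per RefSeq accession, per the file headers; its values are whole and library sums differ. The submitters' processing notes name Bowtie2, HISAT2, HTSeq and the build mm10, with no version or role; whether strand was used, and what became of reads shared by transcript models, is not stated in them. Of 106519 rows 86040 matched a gene of the RefSeq table for GRCm38, and matched rows held 97.65% of the counts. A sum of 60 or more counts was reached by 40.8% of protein-coding genes with 1 accession and by 19.2% of those with 3 or more.

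Rows were tested as deposited in R 4.3.3 with edgeR 4.0.16 (robust quasi-likelihood, TMM, expression filter with minimum count 10 and minimum total count 15, genotype as the term), with Benjamini-Hochberg adjustment over all rows and a threshold of 0.05. Levels are CPM with TMM library sizes, n = 3 mice per genotype, and fold changes are log2 KO over WT with the model's standard error (SE). The median SE was 0.197, and 0.0656 for rows of at least 100 CPM. Alternatives used DESeq2 1.42.0, limma 3.58.1 and other settings. Fits were tested on simulated data.

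The 48 gene lists and the members named were chosen with earlier results of these data known. Named are all changed genes with a symbol, and a selection from the 2 members of each list with the smallest p and the 2 with the highest level, from Ftsj1 and its partners, and from markers listed at 0; Fos, Junb, Dbp, Thra, Klf9, Crym, Kcnj13, Slc13a4, Mbp, Sox10, Cnp, Nefm, Nptx2, Ptgs2, Dusp6, Sesn2, Atf4, Asns, Chac1, the genes near Ftsj1 and the microRNA genes that did not change were added after their values were seen. Paralogs and pseudogenes were not searched for shared reads.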

Additional observations from a re-analysis of the deposited data

How the results depend on the processing

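None of the 24 changed genes turned direction under any of 16 alternatives. Among genes that did not pass, 6 near 0 turned sign with a mouse left out (Klf9 -0.11 to 0.06, Crym -0.05 to 0.06, Kcnj13 -0.33 to 0.01, Slc13a4 -0.17 to 0.00, Dbp -0.10 to 0.09 and Asns -0.37 to 0.04), and Crym was at -0.01 with no filter; the cause was not tested. The count of changed rows was 27 with RLE size factors or a minimum count of 30, 28 without mitochondrially encoded rows, 29 with the accessions of a gene summed, 32 without robust estimation, 22 with counts thinned to the smallest library, 21 with DESeq2 (4 higher) and 18 with limma-voom (3 higher), which kept 20 and 14 of the 27. With no filter on low counts it was 43, of which 34 were lower. Leaving out 1 mouse gave 9 to 42 changed rows, 2 to 16 higher and 7 to 26 lower, with the fewest without KO replicate 1 and the most without WT replicate 3. Ier5, Tmpo, Egr1, Fosl2, Bhlhe40 and Ttr passed under all 16 alternatives. Under limma-voom Ndrg1, Tmem229a and Gm35002 (adjusted p = 0.0508 each), Dio2, Homer1, Col6a1 and Hexim1 (0.0613 each), Egr4 (0.0621), Mal2 (0.0607), Irs2 (0.0627), Celf2 (0.0643) and Mir128-2 (0.129) did not pass.

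Mice with the same number did not deviate together (correlations of deviations -0.072, 0.01 and -0.023), so no pairing by number was seen. Values this near 0 cannot exclude that mice of the same number were handled together. With a replicate block 32 rows changed, 9 higher and 23 lower, and 26 of the 27 were kept.

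With 3 mice per genotype and 2024748 to 3459406 counts, small changes of rare transcripts were not detectable; the genotype could not be checked because Ftsj1 is listed at 0.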
